A study of Mus musculus with 13 samples.

Results

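Whole aortas of atherosclerosis-prone mice were compared by how much brown fat transcript they carried. The libraries were chosen by their measured Ucp1 level alone: the 13 RNA-seq libraries of the series were ranked by Ucp1 as a share of the column total (CPM, counts scaled to a common library total), and the 4 highest (Ucp1-high) were set against the 4 lowest (Ucp1-low), whatever the mice had been given. These 8 of the 13 libraries are described below across all genes other than Ucp1, and the 5 libraries between the sets serve as a further point of comparison.

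All mice were ApoE-/-, a genotype that lacks apolipoprotein E and develops atherosclerosis on a fatty diet, and all were fed Western diet (WD) from 6 weeks of age for 16 weeks. There were 3 libraries from mice given WD with auranofin, a gold-containing inhibitor of thioredoxin reductase, at 3 mg/kg/day. A further 3 came from mice given WD with atorvastatin, a cholesterol-lowering statin, at 10 mg/kg/day, 2 from mice given both drugs at these doses (combination), and 5 from mice given WD alone. RNA was taken from the whole aorta, so smooth muscle, endothelium, plaque cells and any fat left on the vessel were measured together. In such bulk RNA, fewer cells of a type and less RNA per cell cannot be told apart. How closely the fat around the vessel was trimmed, and whether a library came from 1 mouse or a pool, is not given in the sources used here. The spread between libraries may therefore be partly technical.

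Brown adipocytes burn fatty acids and glucose to make heat. Their mitochondria carry uncoupling protein 1, the product of Ucp1, which lets protons leak back across the inner membrane without making ATP. Noradrenaline from sympathetic nerves acts on the beta-3 adrenergic receptor to switch this on, and the coactivator PGC-1alpha, encoded by Ppargc1a, drives the mitochondrial genes. In mice the fat around the thoracic aorta is of the brown kind, while that around the abdominal aorta is more like white fat, which stores triglyceride and secretes leptin.

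Ucp1 stood at 1142 CPM in auranofin 2, 1064 CPM in combination 2, 743 CPM in auranofin 1 and 598 CPM in WD 3, the Ucp1-high libraries. It stood at 189 CPM in WD 4, 168 CPM in combination 1, 75.0 CPM in WD 2 and 61.6 CPM in WD 1, the Ucp1-low libraries. Between them lay atorvastatin 2 with 410 CPM, atorvastatin 3 with 399 CPM, auranofin 3 with 294 CPM, atorvastatin 1 with 251 CPM and WD 5 with 201 CPM. The gap at the upper border, between WD 3 and atorvastatin 2, was wide, whereas at the lower border WD 5 and WD 4 stood close together. Auranofin had been given in 3 of the 4 Ucp1-high libraries and in 1 of the 4 Ucp1-low libraries, and the 3 libraries of atorvastatin alone all lay between the sets. The same 8 libraries were taken when the counts were scaled with TMM factors (trimmed mean of M values), which correct for a few very abundant transcripts.

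**Figure D1:**
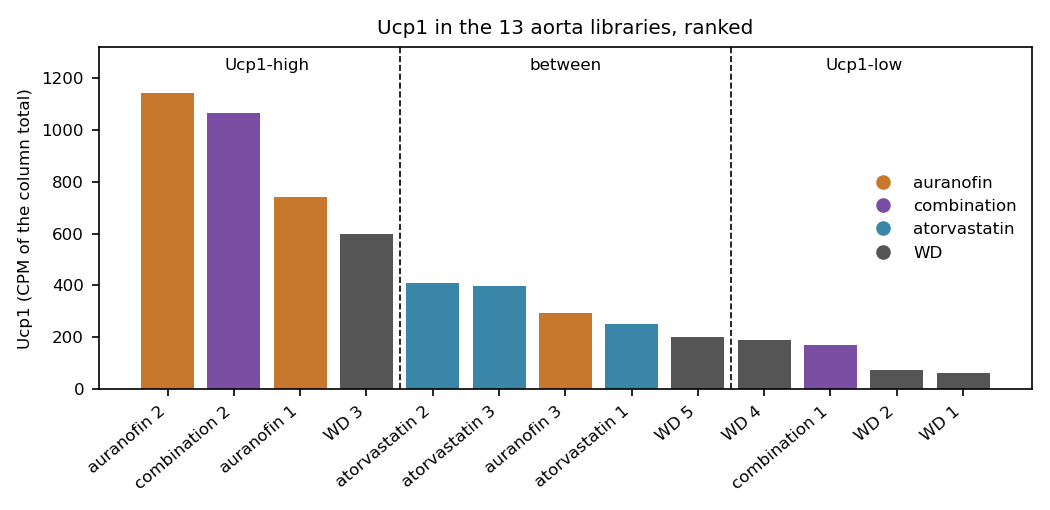
Ucp1 in each of the 13 libraries, in CPM of the column total on a linear axis, with bars coloured by treatment and dashed lines at the borders of the Ucp1-high and Ucp1-low sets. The bars run from 1142 CPM in auranofin 2 to 61.6 CPM in WD 1, and the step at the lower border is small.

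Library totals were 19703683 to 24156822 counts in the Ucp1-high set and 22219720 to 26079566 counts in the Ucp1-low set. One library in each set stood apart from the others. Transcripts of the mitochondrial genome took 38.8% of the counts in auranofin 2 and 26.9% in WD 2, against 19.1% to 24.0% in the other Ucp1-high libraries and 9.36% to 13.5% in the other Ucp1-low libraries. The TMM factors of these 2 libraries were 0.629 and 0.639, and those of the other 6 lay between 0.999 and 1.23. Heart transcripts marked 3 further libraries, with the heart myosin gene Myh6 at 625 CPM in combination 2, 162 CPM in WD 4 and 96.5 CPM in WD 1. Values below are CPM on the TMM scale over all 13 libraries, and the Ucp1-high libraries are always given in the order auranofin 2, combination 2, auranofin 1 and WD 3, and the Ucp1-low libraries in the order WD 4, combination 1, WD 2 and WD 1.

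Most transcripts that define brown adipocytes followed Ucp1, but not all. Cidea, a lipid droplet protein of brown fat, had 448, 326, 221 and 171 CPM in the Ucp1-high libraries, against 81.2, 61.2, 54.6 and 21.0 CPM in the Ucp1-low libraries. Elovl3, which elongates fatty acids in brown fat, had 119, 67.6, 44.3 and 36.9 CPM in the Ucp1-high libraries, against 7.53, 6.84, 3.18 and 1.07 CPM in the Ucp1-low libraries. Cox8b, a cytochrome c oxidase subunit of heart and brown fat, had 307, 114, 94.3 and 64.9 CPM in the Ucp1-high libraries, against 40.5, 29.6, 44.9 and 15.3 CPM in the Ucp1-low libraries. For these 3 genes every Ucp1-high library lay above every Ucp1-low library. Dio2, the deiodinase that activates thyroid hormone in brown fat, overlapped between the sets, with 28.4 to 89.7 CPM in the Ucp1-high libraries and 15.0 to 74.8 CPM in the Ucp1-low libraries. Prdm16, a brown lineage factor that is also expressed in vessel wall cells, overlapped as well, with 20.2 to 67.6 CPM in the Ucp1-high libraries and 23.1 to 52.7 CPM in the Ucp1-low libraries. Zic1, which marks classical brown fat, was at or near 0 in every library and did not pass the filter on low counts. The general adipocyte marker Adipoq was present in all libraries, at 81.6 to 233 CPM in the Ucp1-high set and 27.0 to 119 CPM in the Ucp1-low set. The sets are therefore called by Ucp1 and not by an amount of brown fat.

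Because Ucp1 chose the sets, the differences between them are given as a description, and no test of them is used as support. In edgeR's quasi-likelihood fit over 16476 genes, 0 had a Benjamini-Hochberg adjusted p under 0.05, which is 0% of those tested. At an unadjusted p under 0.05 there were 914 genes higher (5.55%) and 582 lower (3.53%) in the Ucp1-high set. Without scaling beyond the column total that balance turned round, to 309 higher and 1687 lower, and with auranofin given or not as a covariate there were 479 higher and 216 lower. DESeq2 called 351 genes higher (2.13%) and 30 lower (0.182%) at an adjusted p under 0.05. The call used below asks only whether the sets overlap: a gene is called separated where all 4 Ucp1-high values lie on one side of all 4 Ucp1-low values. Of all genes tested, 611 were separated with the Ucp1-high set higher (3.71%) and 428 with it lower (2.6%). Of these, 288 (1.75%) were at least 2-fold higher in the Ucp1-high set and 69 (0.419%) at least 2-fold lower. The median log2 fold change of all genes was -0.01, and 48.7% of them had a fitted fold change above 0. These counts moved with single libraries: with auranofin 2 left out 1431 genes were separated upward and 1495 downward, and with WD 4 left out 1487 upward and 1502 downward. The upward count reached 947 when WD 2 was dropped, and the downward count 925 when WD 3, 729 when combination 2 and 646 when combination 1 was dropped. With fewer libraries a set, more genes fail to overlap. Each list of genes below is read against the shares from all 8, or, in another setting, against the share in that setting.

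The genes that carry out heat production were all higher on average in the Ucp1-high set. Of 25 listed, 23 passed the filter on low counts, all 23 had a fitted fold change above 0, and 17 were separated with the Ucp1-high set higher, against 3.71% of all genes. Their median log2 fold change was 1.96. Cidea differed by 2.44 on the log2 scale (SE 0.45), Elovl3 by 3.86 (SE 0.62), Cox7a1, a muscle and brown fat form of a cytochrome c oxidase subunit, by 2.13 (SE 0.39) and Cox8b by 2.18 (SE 0.52). Otop1, which encodes a proton channel abundant in brown fat, had 44.3, 50.9, 28.4 and 26.8 CPM in the Ucp1-high libraries, against 12.6, 6.99, 3.06 and 2.47 CPM in the Ucp1-low libraries. Adrb3, the beta-3 adrenergic receptor, had 59.9, 54.5, 32.6 and 25.9 CPM in the Ucp1-high libraries, against 24.8, 11.6, 6.49 and 6.66 CPM in the Ucp1-low libraries. The Adrb3 sets were separated by little: WD 3, the lowest of the Ucp1-high libraries, stood just above WD 4, the highest of the Ucp1-low libraries. The potassium channel gene Kcnk3, the amino acid transporter gene Slc36a2 and the lipid droplet gene Plin5, which couples lipolysis to mitochondria, had log2 fold changes of 1.67, 2.05 and 2.17. Pank1, which makes the first step of coenzyme A synthesis, and Letmd1, a mitochondrial protein needed for heat production in mouse brown fat, had log2 fold changes of 1.96 (SE 0.31) and 1.44 (SE 0.21). Fabp3, the heart type fatty acid binding protein that brown fat also uses, overlapped between the sets, with 68.3 to 247 CPM in the Ucp1-high libraries and 44.5 to 90.7 CPM in the Ucp1-low libraries. Cpt1b, which brings fatty acids into muscle and brown fat mitochondria, did not pass the filter, with at most 0.85 CPM in any of the 13 libraries.

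Of 18 listed regulators of the brown lineage, 13 passed the filter and 12 had a fitted fold change above 0. Of the 13, 5 were separated with the Ucp1-high set higher, against 3.71% of all genes. Ppargc1a had 14.8, 12.8, 19.2 and 6.58 CPM in the Ucp1-high libraries, against 4.75, 3.03, 1.86 and 2.47 CPM in the Ucp1-low libraries, a log2 fold change of 2.16 (SE 0.39). Its relative Ppargc1b and the fatty acid sensing receptor gene Ppara were separated in the same direction, at 1.46 (SE 0.32) and 2.19 (SE 0.49) on the log2 scale. Ebf2, which marks brown adipocyte precursors, had 15.0, 13.1, 9.72 and 8.99 CPM in the Ucp1-high libraries, against 8.37, 2.74, 4.32 and 4.26 CPM in the Ucp1-low libraries. The regulators that were not separated included Prdm16, at 0.15 (SE 0.37), whose sign turned to -0.08 without scaling beyond the column total, and the estrogen-related receptor gene Esrra, at 0.40 (SE 0.18). The coactivator transcripts were thus separated by Ucp1, while the lineage factor Prdm16 was not.

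The promoters of 4 genes that stood high in the Ucp1-high set are shown. The genes are Ucp1 itself, its coactivator gene Ppargc1a, the fatty acid elongase gene Elovl6, and Slc27a2, which encodes a very long chain acyl-CoA synthetase. Each is the RefSeq window of 250 bases that ends just before the annotated start, on build GRCm38.p6, 5′ to 3′ on the strand of the gene. Capitals mark matches on either strand to TGACG, the half-site of a cyclic AMP response element, or to AGGTCA, the half-site that many nuclear receptors bind. These are letters found by a search, not sites shown to be bound.
Ucp1: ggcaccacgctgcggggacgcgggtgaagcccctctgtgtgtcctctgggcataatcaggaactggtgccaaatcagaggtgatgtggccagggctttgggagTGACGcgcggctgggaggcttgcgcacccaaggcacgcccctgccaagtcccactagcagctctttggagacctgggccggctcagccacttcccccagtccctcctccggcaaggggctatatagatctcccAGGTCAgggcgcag
Ppargc1a: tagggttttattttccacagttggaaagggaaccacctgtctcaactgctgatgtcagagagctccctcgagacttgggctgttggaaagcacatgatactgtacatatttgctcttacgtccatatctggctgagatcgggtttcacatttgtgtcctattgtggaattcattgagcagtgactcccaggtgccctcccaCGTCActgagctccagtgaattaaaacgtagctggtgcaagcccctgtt
Elovl6: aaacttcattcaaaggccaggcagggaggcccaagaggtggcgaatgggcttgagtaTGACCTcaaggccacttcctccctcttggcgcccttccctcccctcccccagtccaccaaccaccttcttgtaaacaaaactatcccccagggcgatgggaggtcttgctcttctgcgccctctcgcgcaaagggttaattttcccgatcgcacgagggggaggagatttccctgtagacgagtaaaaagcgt
Slc27a2: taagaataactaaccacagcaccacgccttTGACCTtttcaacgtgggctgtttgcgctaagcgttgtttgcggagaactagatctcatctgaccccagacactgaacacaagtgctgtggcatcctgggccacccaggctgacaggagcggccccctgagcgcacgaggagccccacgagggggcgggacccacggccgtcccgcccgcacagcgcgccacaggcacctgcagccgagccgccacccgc
The Ucp1 window, at chr8:83290098-83290347 on the plus strand, held a TGACG that began 147 bases before the start and an AGGTCA that began 14 bases before it. The Ppargc1a window, at chr5:51567726-51567975 on the minus strand, held 1 match, the reverse complement CGTCA, which began 49 bases before the start. The Elovl6 window, at chr3:129532136-129532385, and the Slc27a2 window, at chr2:126552774-126553023, both on the plus strand, each held 1 reverse complement TGACCT, which began 193 bases and 220 bases before the start.
Windows were at hand for 11461 genes, Ucp1 and the tested genes with an entry, of which 28.9% held TGACG and 13.2% held AGGTCA on either strand. Of the 15 heat production genes with a window, 3 (20%) held TGACG and 5 (33.3%) held AGGTCA, and of the 21 fatty acid oxidation genes with one, 5 and 4 held them. Of the 18 synthesis genes with one, 3 (16.7%) held TGACG and 4 (22.2%) held AGGTCA, and of the 18 citric acid cycle genes, 7 (38.9%) and 3 held them. The longer TCAAGGTCA, to which estrogen-related receptors bind and which contains AGGTCA, was in 0.332% of all windows and in none of those of the 4 lists. No window was used for Cidea or Elovl3.

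Fat cell genes in general were also mostly higher in the Ucp1-high set. Of 24 general adipocyte genes, 23 had a fitted fold change above 0, with a median log2 fold change of 1.27. Of the 24, 11 were separated with the Ucp1-high set higher, against 3.71% of all genes. Without scaling beyond the column total 2 were separated, against 1.21% of all genes, with 5 libraries a set 7, against 2.54%, and without WD 3 there were 17, against 5.50%. Gpd1, which makes the glycerol backbone of triglyceride, had 623, 809, 465 and 562 CPM in the Ucp1-high libraries, against 211, 166, 52.1 and 62.6 CPM in the Ucp1-low libraries. Plin1, the coat protein of lipid droplets, had 168, 216, 113 and 116 CPM in the Ucp1-high libraries, against 93.9, 42.9, 22.6 and 24.0 CPM in the Ucp1-low libraries. Both genes were lower in every Ucp1-low library than in any Ucp1-high library, and WD 4 was the Ucp1-low library nearest to the other set for both. The adipocyte regulator gene Pparg and the insulin-responsive glucose transporter gene Slc2a4 were separated by 1.38 (SE 0.27) and 1.24 (SE 0.22) on the log2 scale. Cfd, which encodes the secreted protease adipsin, behaved otherwise: it had 351, 567, 319 and 148 CPM in the Ucp1-high libraries, against 441, 71.6, 550 and 77.2 CPM in the Ucp1-low libraries. WD 2, with little Ucp1, thus had nearly as much Cfd as combination 2.

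Genes associated with white fat did not follow Ucp1. Of 15 tested, 5 had a fitted fold change above 0, none was separated upward and 1 was separated downward, with a median log2 fold change of -0.29. The sign of this median turned to 0.10 when WD 2 was left out. Lep, which encodes leptin, was low in every library, at 0.33 to 6.42 CPM in the Ucp1-high set and 0.30 to 3.54 CPM in the Ucp1-low set. Retn, which encodes resistin, had 13.1 to 30.4 CPM in the Ucp1-high libraries and 4.03 to 45.8 CPM in the Ucp1-low libraries, with its highest value in WD 2. Tcf21, a factor of white fat and mesenchymal cells, was the gene separated downward, at 0.71 to 1.52 CPM in the Ucp1-high libraries and 2.11 to 3.54 CPM in the Ucp1-low libraries. Of 8 beige fat markers tested, Aqp7, the glycerol channel, was separated upward at 2.00 (SE 0.51) on the log2 scale and Tnfrsf9, a receptor that activated T cells carry too, downward at -1.59 (SE 0.55). Of 7 tested factors that brown fat is known to secrete, Nrg4, a growth factor, and Angptl8, an inhibitor of lipoprotein lipase, were separated upward, at 1.84 (SE 0.40) and 1.83 (SE 0.34). Gdf15, a stress-induced hormone, was separated downward at -1.08 (SE 0.36), and Vegfa, which promotes vessel growth, overlapped between the sets at 1.36 (SE 0.35).

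**Figure D2:**
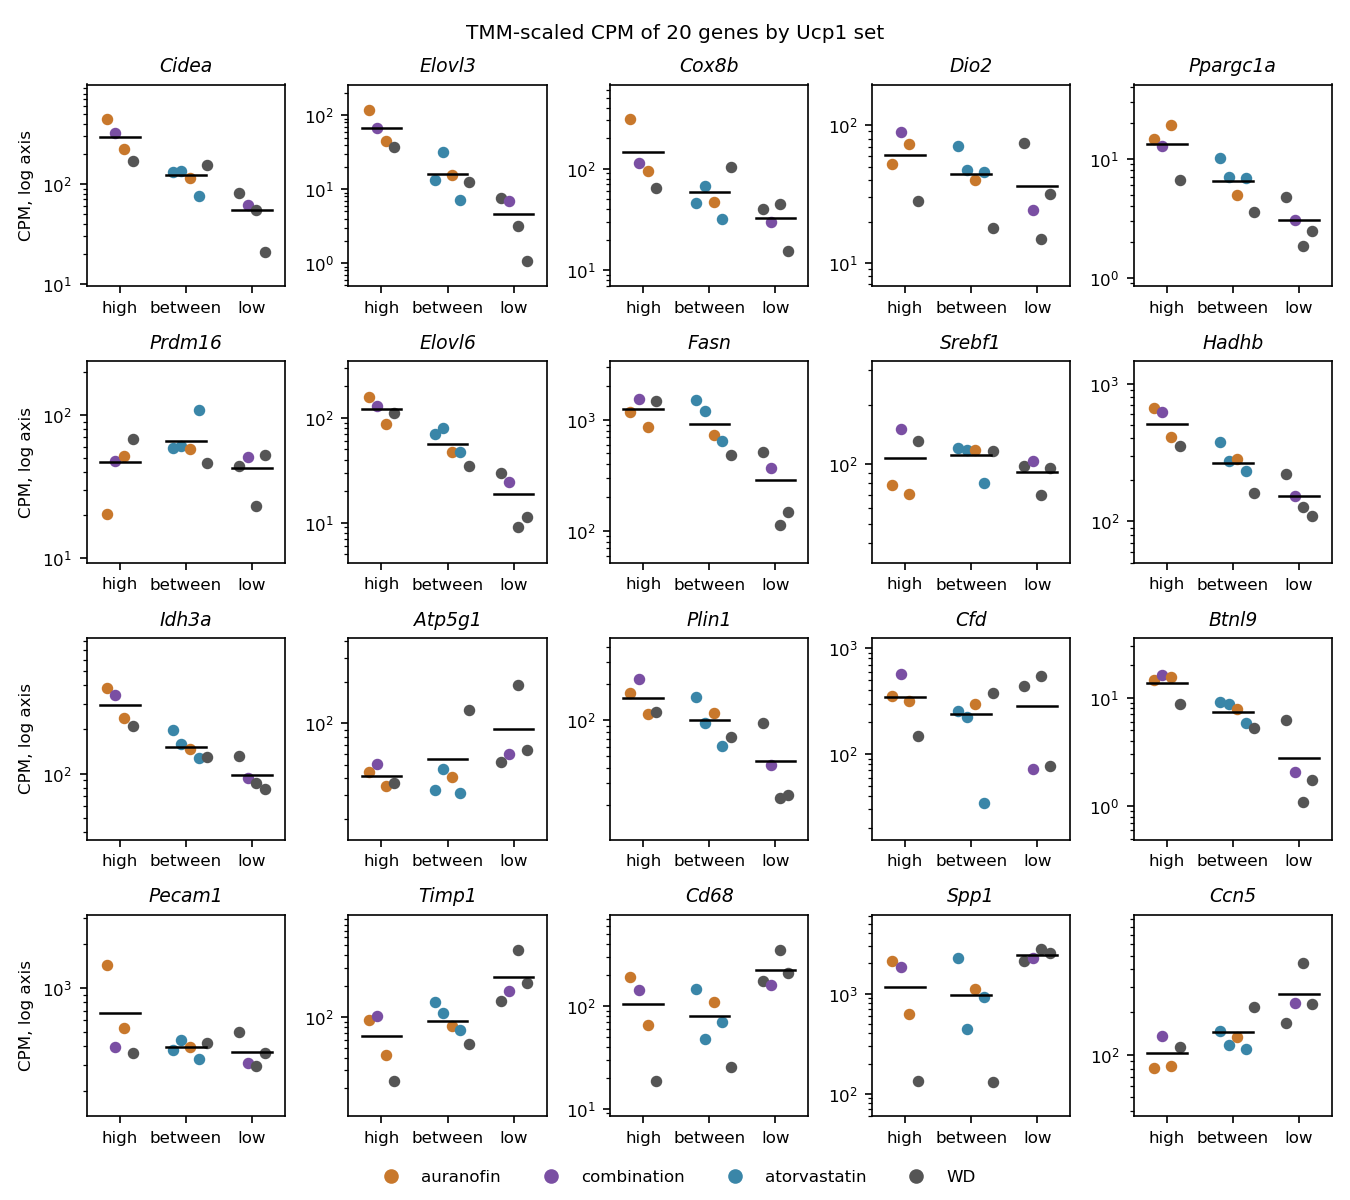
CPM on the TMM scale of 20 genes in the 4 Ucp1-high, the 5 intermediate and the 4 Ucp1-low libraries, on log axes, with 1 point a library coloured by treatment and a bar at the mean of each set. Cidea, Elovl3, Elovl6 and Hadhb step down from left to right, Prdm16, Cfd and Pecam1 overlap, and Timp1 and Ccn5 are lowest in the Ucp1-high set.

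Genes for the synthesis of fatty acids and triglyceride were higher in the Ucp1-high set as well. All 22 listed genes were tested and all 22 had a fitted fold change above 0, with a median log2 fold change of 1.73. Of the 22, 17 were separated with the Ucp1-high set higher, against 3.71% of all genes. Elovl6, which extends palmitate to stearate, had 158, 131, 88.0 and 111 CPM in the Ucp1-high libraries, against 29.6, 24.6, 9.07 and 11.4 CPM in the Ucp1-low libraries, a log2 fold change of 2.73 (SE 0.40). Fasn, the fatty acid synthase, had 1185, 1533, 862 and 1464 CPM in the Ucp1-high libraries, against 514, 366, 113 and 148 CPM in the Ucp1-low libraries. Acly, which supplies cytosolic acetyl-CoA, had 357, 337, 219 and 529 CPM in the Ucp1-high libraries, against 154, 140, 48.5 and 94.0 CPM in the Ucp1-low libraries. WD 3, with the least Ucp1 of its set, had the most Acly and the second most Fasn of the 4, so the order within the set was not that of Ucp1. The acetyl-CoA carboxylase genes Acaca and Acacb differed by 1.84 (SE 0.35) and 2.27 (SE 0.45) on the log2 scale, the desaturase gene Scd1 by 2.07 (SE 0.55), and Thrsp, a lipogenic cofactor, by 1.93 (SE 0.41). Mlxipl, which encodes the glucose-sensing factor ChREBP, was separated, with 39.3 to 49.9 CPM in the Ucp1-high libraries and 4.38 to 15.5 CPM in the Ucp1-low libraries. Srebf1, which encodes the insulin-responsive factor SREBP1, overlapped, with 71.0 to 152 CPM in the Ucp1-high libraries and 69.5 to 104 CPM in the Ucp1-low libraries. Pck1, which supplies glycerol phosphate in fat cells, overlapped through WD 3 and WD 4 alone, with 149 CPM in WD 3 and 175 CPM in WD 4.

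Genes that oxidise fatty acids and feed the citric acid cycle were higher in the Ucp1-high set too. Of 25 fatty acid oxidation genes, 24 had a fitted fold change above 0, with a median log2 fold change of 1.07. Of the 25, 19 were separated upward, against 3.71% of all genes. Without scaling beyond the column total 11 were separated upward, against 1.21% of all genes. Hadhb, a subunit of the mitochondrial trifunctional protein, had 661, 627, 411 and 355 CPM in the Ucp1-high libraries, against 220, 153, 127 and 110 CPM in the Ucp1-low libraries. Its partner Hadha and the acyl-CoA dehydrogenase genes Acadvl and Acadl had log2 fold changes of 1.34 (SE 0.28), 1.38 (SE 0.25) and 1.66 (SE 0.32). Cpt2, the inner membrane carnitine acyltransferase, was at 1.43 (SE 0.29), while Cpt1a, the outer membrane form of liver and many other tissues, overlapped at -0.08 (SE 0.22). Pdk4, which holds back pyruvate oxidation in favour of fat, had 242, 314, 244 and 133 CPM in the Ucp1-high libraries, against 122, 42.7, 10.6 and 22.9 CPM in the Ucp1-low libraries. Of 21 genes of pyruvate entry and the citric acid cycle, all 21 had a fitted fold change above 0, with a median log2 fold change of 1.03. Of the 21, 15 were separated upward, against the same 3.71% of all genes. Idh3a, a subunit of isocitrate dehydrogenase, had 382, 343, 238 and 211 CPM in the Ucp1-high libraries, against 133, 93.3, 86.8 and 78.0 CPM in the Ucp1-low libraries. Cs, the citrate synthase, differed by 0.95 (SE 0.22) on the log2 scale.

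The respiratory chain was less uniform, and its count rested on 1 library. Of 37 nuclear genes of the chain and the ATP synthase, 30 had a fitted fold change above 0, with a median log2 fold change of 0.27. Of the 37, 10 were separated upward, against 3.71% of all genes, and 1 downward, against 2.6%. When WD 2 was left out, 33 of the 37 were separated upward, against 5.75% of all genes, and the median was 0.80. The complex I gene Ndufs1 had 139, 140, 99.9 and 96.9 CPM in the Ucp1-high libraries, against 79.2, 55.9, 43.5 and 50.2 CPM in the Ucp1-low libraries, with WD 2 lowest of all. The complex III gene Uqcrc1 had 204, 205, 145 and 178 CPM in the Ucp1-high libraries, against 104, 117, 129 and 94.3 CPM in the Ucp1-low libraries, with WD 2 highest of its set. The summed CPM of the 37 genes was 7700, 6302, 4851 and 4750 in the Ucp1-high libraries and 3630, 3546, 7632 and 3175 in the Ucp1-low libraries, so WD 2 was close to the highest Ucp1-high library. Atp5g1, a subunit of the ATP synthase ring, was the gene separated downward, with 34.8 to 50.3 CPM in the Ucp1-high libraries and 52.0, 59.6, 191 and 64.0 CPM in the Ucp1-low libraries. The 13 protein genes of the mitochondrial genome all had a fitted fold change above 0, with a median of 0.84, and 2 were separated, mt-Nd5 at 1.43 (SE 0.49) and mt-Nd6 at 1.63 (SE 0.55). That median was 0.32 without auranofin 2 and 1.76 without WD 2, the 2 libraries with the highest mitochondrial share. Of 13 genes of mitochondrial biogenesis and fusion, only Opa1, which fuses inner membranes, was separated, at 0.83 (SE 0.29).

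Other fuel pathways differed by smaller amounts. Of 11 genes of branched-chain amino acid use, 10 had a fitted fold change above 0 and 6 were separated upward, against 3.71% of all genes. Dbt, the core of the branched-chain keto acid dehydrogenase, was separated by 1.09 (SE 0.29) on the log2 scale. Of 15 genes of glycolysis and glycogen synthesis, 4 were separated upward, against the same 3.71%. Hk2, an insulin-responsive hexokinase, Pfkl, a phosphofructokinase, and the glycogen synthase genes Gys1 and Gys2 were at 1.26, 1.08, 1.11 and 2.46 on the log2 scale. Gys2 had 27.7, 24.0, 18.1 and 15.0 CPM in the Ucp1-high libraries, against 7.67, 3.07, 3.48 and 1.32 CPM in the Ucp1-low libraries. The creatine cycle, another heat-producing route of brown fat, did not share this direction: none of its 6 tested genes had a fitted fold change above 0 and none was separated. Ckb, the creatine kinase of brain and brown fat, had 80.2, 118, 116 and 146 CPM in the Ucp1-high libraries, against 117, 166, 254 and 179 CPM in the Ucp1-low libraries.

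The small vessels that supply fat gave a mixed picture. Of 14 markers of capillary endothelium, 12 had a fitted fold change above 0, with a median log2 fold change of 0.63. Of the 14, 4 were separated upward, against 3.71% of all genes. Btnl9, a capillary surface protein, had 14.6, 16.1, 15.6 and 8.66 CPM in the Ucp1-high libraries, against 6.25, 2.07, 1.08 and 1.75 CPM in the Ucp1-low libraries. Gpihbp1, which anchors lipoprotein lipase on capillaries, Cd300lg, a receptor of capillary endothelium, and Kdr, a VEGF receptor, were separated at 1.30 (SE 0.40), 1.40 (SE 0.35) and 1.24 (SE 0.37). Of 15 markers of endothelium in general, 15 had a fitted fold change above 0 and 1, Robo4, was separated, with a median of 0.62. That median was 0.05 without auranofin 2, in which Pecam1 stood at 1427 CPM, against 293 to 532 CPM in the other 7 libraries.

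**Figure D3:**
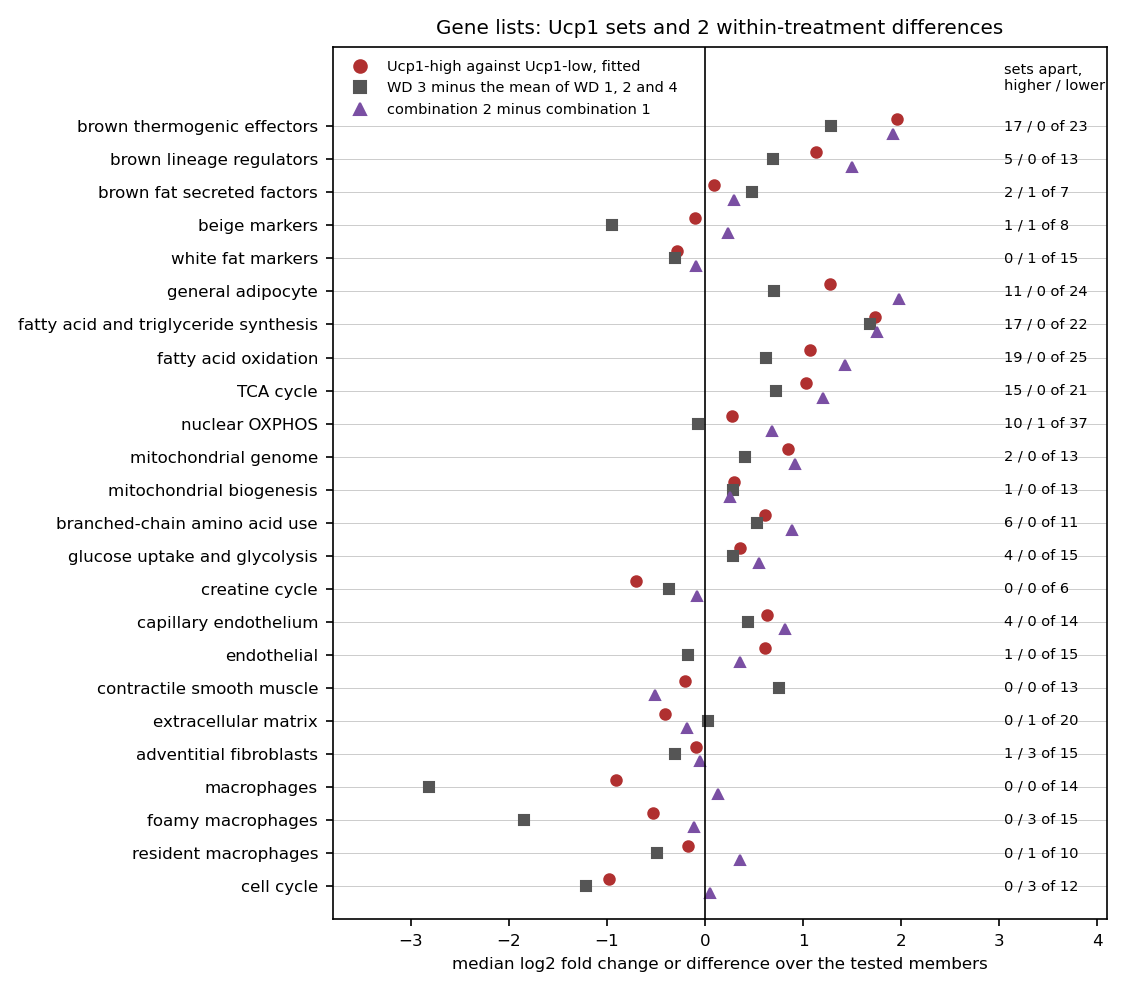
Median log2 fold change of 24 gene lists between the Ucp1-high and Ucp1-low sets (circles), with the median difference in log2 CPM between WD 3 and the mean of WD 1, 2 and 4 (squares) and between combination 2 and combination 1 (triangles). Numbers at the right count the separated genes, higher and lower, of those tested; synthesis, heat production, oxidation and citric acid cycle genes lie right of 0 for all 3 symbols, and white fat markers lie left of it.

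Beyond the lists, the genes with the largest fold changes were taken among separated genes with a mean of at least 2 CPM. The 12 highest were Lncbate10, Elovl3, Slc27a2, Odad4, Acss3, Aspg, Elovl6, Klb, Otop1, Gys2, Clstn3 and Cidea. Lncbate10, a long noncoding RNA of mouse brown fat, had 6.26, 8.13, 3.17 and 0.82 CPM in the Ucp1-high libraries, against 0.44, 0.37, 0.18 and 0.04 CPM in the Ucp1-low libraries, so its log2 fold change of 4.13 (SE 0.80) rests on few counts in the Ucp1-low set. Slc27a2 had 35.4, 36.4, 25.7 and 7.64 CPM in the Ucp1-high libraries, against 5.63, 3.00, 3.66 and 0.29 CPM in the Ucp1-low libraries. WD 3 was the lowest Ucp1-high library for both genes. Clstn3, whose locus also holds an isoform made in mouse adipocytes that gene counts do not separate, differed by 2.45 (SE 0.42). Klb, the co-receptor for the hormone FGF21, differed by 2.64 (SE 0.63). Acss3, a mitochondrial acyl-CoA synthetase of short chains, Aspg, an asparaginase, and Odad4, a part of the docking complex of cilia, differed by 2.89 (SE 0.81), 2.86 (SE 0.51) and 2.98 (SE 0.53).

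Among the 12 lowest were Timp1, Anxa8, Tnfrsf9, Ch25h, Cd72, Lcn2, Igfbp2, Ccn5, Bok, Pbk and Has1. Of these, Tnfrsf9 was on the list of beige fat markers, and none was on a brown fat list. Timp1, an inhibitor of matrix metalloproteases, had 94.2, 103, 42.4 and 23.4 CPM in the Ucp1-high libraries, against 145, 180, 454 and 215 CPM in the Ucp1-low libraries. Igfbp2, which binds insulin-like growth factors, had 25.7, 25.5, 11.7 and 19.3 CPM in the Ucp1-high libraries, against 40.5, 44.9, 54.2 and 78.5 CPM in the Ucp1-low libraries. Ccn5, a matricellular protein of smooth muscle and fibroblasts, had 80.9, 135, 83.4 and 113 CPM in the Ucp1-high libraries, against 167, 231, 441 and 228 CPM in the Ucp1-low libraries. The lowest values of the 3 genes were in Ucp1-high libraries, yet the sets came close for each, with the highest Ucp1-high value well within 2-fold of the lowest Ucp1-low value. Ch25h, which makes an oxysterol in macrophages, had 0.69 to 4.02 CPM in the Ucp1-high libraries and 4.36 to 9.31 CPM in the Ucp1-low libraries. Lcn2, an iron-scavenging acute phase protein, had 33.9, 87.5 and 60.7 CPM in auranofin 2, combination 2 and auranofin 1 but 3.88 CPM in WD 3, against 103 to 145 CPM in the Ucp1-low libraries.

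Macrophage and plaque transcripts moved with these genes in some libraries. Of 14 macrophage markers, 2 had a fitted fold change above 0 and none was separated, with a median log2 fold change of -0.91. Without auranofin 2 there were 5 separated downward, against 9.07% of all genes, and 5 also without scaling beyond the column total, against 11.3%. Cd68, the common macrophage marker, had 192, 142, 64.5 and 18.5 CPM in the Ucp1-high libraries, against 174, 160, 350 and 209 CPM in the Ucp1-low libraries. The summed CPM of the 14 markers ran from 347 in WD 3 to 2196 in auranofin 2 within the Ucp1-high set, and from 1579 in combination 1 to 3540 in WD 2 within the Ucp1-low set. Of 15 genes of lipid-laden macrophages, 3 were separated downward, against 2.6% of all genes, and 5 without auranofin 2, against 9.07%. With another scaling, by median of ratios, 1 was, against 2.1%, and with 5 libraries a set none was, against 1.17%. Spp1, osteopontin, had 2093, 1852, 628 and 134 CPM in the Ucp1-high libraries, against 2099, 2294, 2787 and 2571 CPM in the Ucp1-low libraries, and Gpnmb differed by -0.81 (SE 0.58). The separation of Spp1 was narrow, since auranofin 2 and WD 4 had nearly the same value. The part of macrophage content in the lower genes was not tested. All 12 cell cycle genes had a fitted fold change below 0, with a median of -0.98, and 3 were separated downward, against 2.6% of all genes. That count was 10 without combination 1, against 3.92% of all genes, and 5 without combination 2, against 4.42%. It was 6 without auranofin 2, against 9.07%, and 6 without scaling beyond the column total, against 11.3%. With 5 libraries a set it was 0, against 1.17%. Plk1, a mitotic kinase, had 0.59 to 1.70 CPM in the Ucp1-high libraries and 2.04 to 3.36 CPM in the Ucp1-low libraries.

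Smooth muscle and matrix genes of the vessel wall were hardly separated. Of 13 contractile smooth muscle genes, 5 had a fitted fold change above 0 and none was separated, with a median log2 fold change of -0.20. Their summed CPM ran from 6800 in auranofin 2 to 22609 in WD 3 within the Ucp1-high set. Within the Ucp1-low set it ran from 15369 in WD 4 to 26962 in WD 2. Smooth muscle markers disagreed in WD 2: Acta2 was the highest of the Ucp1-low set there, at 22510 CPM. Myh11 was the lowest there, at 837 CPM, against 2735 to 3861 CPM in the other Ucp1-low libraries. Of 20 extracellular matrix genes, 1 had a fitted fold change above 0 and 1, Col1a1, was separated downward at -0.51 (SE 0.29), with a median of -0.41. Auranofin 2 had the lowest summed matrix and smooth muscle CPM of all 13 libraries. Of 15 genes of adventitial fibroblasts, in the outer wall, 6 had a fitted fold change above 0, with a median of -0.09. Here 3 were separated downward, against 2.6% of all genes, and 1 upward, against 3.71%. Their summed CPM was 4803 to 6134 in the Ucp1-high libraries and 6194 to 6831 in the Ucp1-low libraries, so the sums did not overlap.

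Transcripts of other tissues entered single libraries. The summed CPM of the heart muscle genes was 1875 in combination 2, against 22.6 to 40.4 in the other Ucp1-high libraries, and 558 in WD 4 and 413 in WD 1, against 34.0 and 54.2 in the other Ucp1-low libraries. Skeletal muscle genes summed to 183 CPM in WD 3 and to at most 43.7 CPM in the other 7 libraries of the sets. B and plasma cell genes summed to 1673 CPM in auranofin 2 and to 133 to 264 CPM in the other 7. The thymocyte recombinase gene Rag1 stood at 6.67 CPM in auranofin 1 and 4.05 CPM in WD 3, and at no more than 0.26 CPM in the other 6. Heart, skeletal muscle and brown fat share genes such as Fabp3 and Cox8b. Leaving out the 3 libraries over 50 CPM of Myh6 left 3 against 2 libraries. Of the 23 heat production genes, 21 were then separated upward, against 14.4% of all genes (2368). With 4 libraries a set that share of all genes was 3.71%. Separation comes more easily with so few libraries, so the part of heart transcripts in these genes was not tested.

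**Figure D4:**
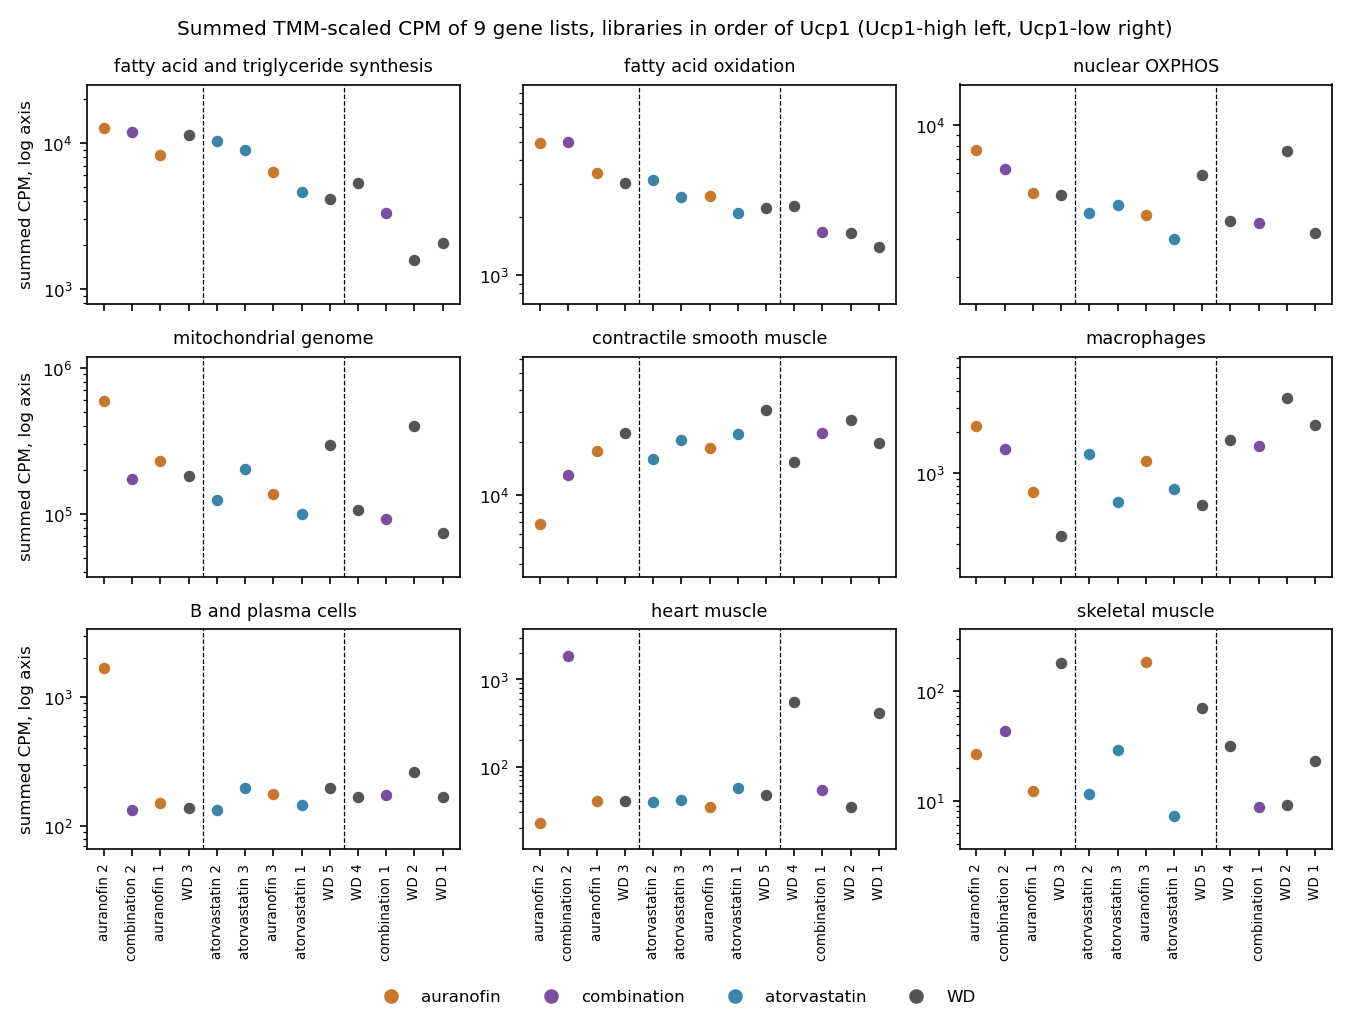
Summed CPM on the TMM scale of 9 gene lists in each library, on log axes, with the libraries in the order of Ucp1 from auranofin 2 on the left to WD 1 on the right and dashed lines at the borders of the sets. Synthesis and oxidation sums tend to decline along this order, respiratory chain sums are high in auranofin 2 and WD 2 alike, and the B cell and heart sums are high in 1 and 3 libraries.

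The 5 libraries between the sets, which were in no fit of the sets, lay in between for most separated genes. The mean of the 5 fell between the means of the sets for 581 of the 611 upward genes, and for all 17 heat production, all 17 synthesis, all 19 oxidation and all 15 citric acid cycle genes. Ucp1 ranked these libraries too, so this is no independent check. Single libraries departed from the order: WD 5 had 104 CPM of Cox8b, above the 94.3 CPM of auranofin 1 and the 64.9 CPM of WD 3. WD 5 had the highest mitochondrial share of the 5, at 24.2%.

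Each set mixes treatments, so the same genes were followed between libraries of 1 treatment. Among the WD libraries, WD 3 was set against the mean of WD 1, WD 2 and WD 4 as a difference in log2 CPM, with no replicate of WD 3. All 22 synthesis genes were higher in WD 3, with a median difference of 1.68, as were 21 of 23 heat production genes (1.29), 23 of 25 oxidation genes (0.63) and all 21 citric acid cycle genes (0.72). Over all genes 50.2% were higher in WD 3, with a median difference of 0.0027. Respiratory chain genes were not higher as a group, with 15 of 37 and a median of -0.07. Macrophage markers were lower in WD 3 for 13 of 14 genes, with a median of -2.81. Combination 2 was set against combination 1 in the same way. All 22 synthesis genes, 22 of 23 heat production genes, all 25 oxidation genes, all 24 adipocyte genes and 36 of 37 respiratory chain genes were higher in combination 2, with medians of 1.75, 1.92, 1.43, 1.98 and 0.69. Of all 16476 tested genes, 8233 were higher in combination 2. Macrophage markers differed little there, with 8 of 14 higher and a median of 0.13. Heart muscle genes summed to 1875 CPM in combination 2 and to 54.2 CPM in combination 1. All 9 tested heart muscle genes were higher in combination 2, and 1 of the 9 was higher in WD 3. How far heart transcripts contributed to the other lists in the combination pair, the respiratory chain among them, was not tested. The respiratory chain and macrophage genes thus differed as groups in 1 pair each, the respiratory chain in the combination pair and the macrophage markers in the WD pair. These pairs are made of the same libraries that Ucp1 chose, and a gene separated upward is higher in both by definition, so the counts are a description and no check on the sets. Among members whose sets overlapped, 5 of 5 synthesis, 4 of 6 heat production, 4 of 6 oxidation, 6 of 6 citric acid cycle and 5 of 26 respiratory chain genes were higher in WD 3. In combination 2 the higher ones were 5, 5, 6, 5 and 26 of these genes. Of all 15437 tested genes whose sets overlapped, 7662 were higher in WD 3 and 7622 in combination 2.

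The labelled treatments, which do not depend on Ucp1, gave no gene that passed. Each was compared with WD in an edgeR fit of all 13 libraries over 18055 genes, and the 3 comparisons share the 5 WD libraries. The number of genes with an adjusted p under 0.05 was 0 (0%) for auranofin, for atorvastatin and for the combination, with smallest adjusted p-values of 0.671, 0.340 and 0.915. At an unadjusted p under 0.05 there were 1173, 2648 and 265 genes, and DESeq2 called 2, 0 and 4. Without combination 1 the edgeR fit called 10 genes for the combination, which then had 1 library. Ucp1 averaged 2.02 higher on the log2 scale with auranofin than with WD (SE 0.77, unadjusted p = 0.0216 and adjusted p = 0.671 in edgeR), with 2 of the 3 auranofin libraries above every WD library. With atorvastatin it was 0.48 higher (SE 0.78, adjusted p = 0.742) and with the combination 1.29 higher (SE 0.86, adjusted p = 0.997). None of these differences passed after adjustment over the 18055 genes. The 24 heat production genes in these fits had median log2 fold changes of 1.21, 0.47 and 1.03 against WD for auranofin, atorvastatin and the combination, with 23, 21 and 23 above 0 and 0 passing in each. The synthesis genes had medians of 0.75, 0.47 and 0.56, with 20 of 22 above 0 each time, and all genes tested had medians of -0.04, -0.01 and -0.01.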

How the data were processed

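The authors deposited 1 table of read counts per gene for the 13 libraries. The submitters' processing notes name STAR 2.6.1d, Subread 1.6.3 with its featureCounts, and the build GRCm39, without settings. Libraries were non-stranded, per the labels' protocols, so a gene and its antisense partner cannot be told apart. The table held 56953 genes, 1554 of them without a symbol. Ucp1 in CPM of the column total ranked the libraries, and groups came from the labels. The 8 libraries were fitted in edgeR 4.0.16 (filterByExpr, TMM factors, quasi-likelihood test, Benjamini-Hochberg adjustment, threshold 0.05) with the set as the only term, and the 13 with treatment as the term. DESeq2 1.42.0 and limma 3.58.1 (voom) were alternatives, beside other scalings, filters, set sizes and left-out libraries. On data simulated for the 8 libraries over 16476 genes, the edgeR fit recovered 10% of genes changed 2-fold and 76% of genes changed 4-fold. Separation of the sets was judged on CPM with TMM factors over all 13 libraries. The genes named beyond the lists were to be the 12 a direction with the most extreme fold change among those called, separated, at 2 CPM or more on average leaving out predicted genes and antigen receptor segments. As no gene was called, the rule was applied without the call; 210 higher and 30 lower genes met the rest of it at 2-fold or more. Genes of the lists were named by mean CPM or by their role. The members and lists were chosen with earlier results of these data known. Precision is limited by 4 libraries a set, and intervals from counts alone were not used. Some genes that met these rules are not reported here.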

Additional observations from a re-analysis of the deposited data

Results flagged for a closer look

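Within the sets and among the libraries between them, 300 groups of values were examined for a library far from the rest. Chance passes this check in about 1 in 20 groups, and 12 stood out, no more than that rate would give. In the Ucp1-high set auranofin 2 stood out for mt-Nd5 with 17320 CPM, against 7146 to 7998 CPM in the other libraries of its set, for mt-Nd6 with 6819 CPM, against 1590 to 1959 CPM, and for the endothelial gene Pecam1 with 1427 CPM, against 361 to 532 CPM. Combination 2 stood out for Slc2a4 with 102.6 CPM, against 63.0 to 69.5 CPM, for Kdr with 33.59 CPM, against 20.4 to 22.2 CPM, and for Dbt with 59.19 CPM, against 38.9 to 41.0 CPM. In the Ucp1-low set WD 2 had 190.6 CPM of Atp5g1, against 52.0 to 64.0 CPM, and WD 4 had 1.899 CPM of Klb, against 0.322 to 0.420 CPM. Among the libraries between the sets, WD 5 had 124.3 CPM of Atp5g1, against 31.2 to 46.1 CPM, and 231.7 CPM of Ckb, against 112 to 141 CPM. Atorvastatin 1 had 108.9 CPM of Prdm16, against 46.2 to 60.5 CPM, and 80.76 CPM of Srebf1, against 117 to 122 CPM.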

How the results depend on the processing

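The number of genes called between the sets was 0 in edgeR, 24 with no filter on low counts, 381 with DESeq2, 69 with the 3 highest against the 3 lowest and 120 with all 13 libraries in 3 sets. For the treatments, no filter gave 13 genes for auranofin, 2 for atorvastatin and 9 for the combination, and DESeq2 gave 2 for auranofin and 4 for the combination. Leaving out 1 library gave 0 to 10 for the combination. A replicate block gave 0 for each treatment, with smallest adjusted p-values of 0.684, 0.435 and 0.911; same-numbered libraries correlated at -0.309 to 0.433, so the numbers do not pair them. Between the Ucp1 sets, a replicate block, to which only replicates 1 and 2 contribute a comparison, gave 5 genes called and a smallest adjusted p of 0.0224.

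With no scaling beyond the column total, which shifted the median of all genes to -0.24, 199 genes were separated upward and 1858 downward, and the upward counts were 3 regulators, 2 adipocyte, 11 synthesis, 11 oxidation and 6 respiratory chain genes. With 3 against 3, 1892 genes were separated upward, 2155 downward and 19 adipocyte genes upward. With 5 against 5, 418 genes were separated upward and 193 downward, and 7 adipocyte and 5 respiratory chain genes upward. Without the libraries over 50 CPM of Myh6, 2368 were separated upward and 2439 downward. Without the 2 libraries with a TMM factor under 0.7 1805 were separated upward and 1774 downward, with 33 respiratory chain genes upward. Leaving out 1 library gave 670 to 1487 upward, 502 to 1502 downward, 11 to 17 adipocyte genes and 10 to 33 respiratory chain genes. Fewer libraries separate more genes by construction; the cause was not tested otherwise. The last 2 exclusions, the replicate block between the Ucp1 sets and the counts of separated genes were chosen after seeing the data.

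Over the single genes, 2187 pairs of gene and setting kept direction and side of the threshold, 142 passed it only in the alternative and 20 changed sign. The 20 were in genes whose sets overlapped. Prdm16 had a log2 fold change of -0.077 with no scaling and -0.065 with 3 against 3, and ranged from -0.084 without WD 3 to 0.37 without auranofin 2 when 1 library was left out. Lep had -0.59 with 3 against 3, -0.38 with the replicate block and ranged from -0.61 without WD 3 to 0.88 without WD 1. Retn had -0.12 with 5 against 5, -0.35 without the Myh6 libraries and ranged from -0.12 without WD 1 to 1.11 without WD 2. Cfd had -0.15 without the Myh6 libraries and ranged from -0.030 without combination 2 to 0.82 without WD 2. Cpt1a had 0.11 with 3 against 3, with 5 against 5 and without WD 4, 0.17 without the Myh6 libraries and 0.18 with the replicate block.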

Other observations

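Several gene groups showed little or no split by Ucp1. Of 14 circadian clock genes, 9 had a fitted fold change above 0 and none was separated, with a median log2 fold change of 0.12; the median difference was 0.76 between WD 3 and the other WD libraries of the sets and -0.85 between combination 2 and combination 1. Of 12 immediate early genes, which respond within minutes to handling and stimuli, 1 had a fitted fold change above 0 and none was separated, with a median of -0.49. Cartilage genes were also not separated, with a median of -0.74, and their summed level ran from 43.1 to 451 CPM in the Ucp1-high libraries and from 50.2 to 744 CPM in the Ucp1-low libraries. Sympathetic neuron genes summed to 7.81 to 15.5 CPM in the Ucp1-high libraries and to at most 15.7 CPM in the Ucp1-low libraries, and to 159 CPM in atorvastatin 2, which lay between the sets.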
